A study of Mus musculus with 17 samples.

Results

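The 10 genes Dcn, Lum, Col1a1, Col1a2, Col3a1, Slc6a13, Mgp, Fmod, Bgn and Igf2 are known markers of meningeal fibroblasts and of the matrix that these cells deposit. They were taken by symbol, and all 10 were found among the 25239 genes of each of 3 tables of raw counts. Bulk RNA was sequenced from DAT-cre mice, which carry Cre recombinase in dopamine neurons; every group carries this line. The mice completed oDASS, in which an animal stimulates its own dopamine neurons with light, and the labels class them as perseverers, called addicted, or renouncers, called non-addicted. Before oDASS, imprints of brain tissue from the orbitofrontal cortex (OFC) gave 2 perseverer and 3 renouncer libraries. After oDASS, dissected OFC gave 3 perseverer and 3 renouncer libraries, and dissected medial prefrontal cortex (mPFC) gave 3 perseverer and 3 renouncer libraries. Stage and way of collection coincide and cannot be told apart. The labels give no age, no meninges and no statement that replicates are separate animals, so the p-values measure the spread between these libraries, which may be technical.

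Fibroblasts of the meninges and of the sheaths around larger brain vessels make the collagen of those layers. Type I collagen is built from the chains of Col1a1 and Col1a2 and joins type III collagen, the product of Col3a1, in fibrils. Decorin (Dcn), lumican (Lum) and fibromodulin (Fmod) are small leucine-rich proteoglycans that bind collagen fibrils and limit their width, and biglycan (Bgn) is a close relative of decorin. Matrix Gla protein (Mgp) inhibits calcification. Slc6a13 encodes GAT2, a transporter of GABA and taurine found in leptomeningeal cells, and Igf2 is an insulin-like growth factor that the leptomeninges and choroid plexus make in the adult brain.

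In the GENCODE M21 annotation of GRCm38, 3 of the members lie on chromosome 6, which are Col1a2 (chr6:4504814-4541544, plus strand), Slc6a13 (chr6:121300227-121337733, plus) and Mgp (chr6:136872435-136875823, minus). Dcn (chr10:97479609-97518143, plus) and Lum (chr10:97565128-97572703, plus) are neighbours on chromosome 10. Col3a1 (chr1:45311538-45349706, plus) and Fmod (chr1:134037254-134048277, plus) share chromosome 1. Col1a1 (chr11:94936224-94953042, plus), Bgn (chrX:73483602-73495933, plus) and Igf2 (chr7:142650766-142666816, minus) stand apart. Other annotated genes, among them an antisense gene, overlap 64.5% of the exon bases of Igf2, and the libraries do not keep strand, so its counts are uncertain. Of the 10 members, 6 had a RefSeq promoter window of GRCm38.p6 that runs from 250 bases before to 50 bases after an annotated start; Dcn, Lum, Col1a1 and Mgp had none.

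The windows of 2 fibrillar collagen genes are printed to show how promoters of chains found in the same fibrils differ in composition. Col1a2 spans chr6:4505368-4505667 and Col3a1 spans chr1:45311288-45311587, both on the plus strand and printed 5′ to 3′. Capitals mark, on either strand, the letters TATAAA for a TATA box, the letters CCAAT for a CCAAT box and the letters GGGCGG for a GC box. No window printed has overlapping matches.
Col1a2: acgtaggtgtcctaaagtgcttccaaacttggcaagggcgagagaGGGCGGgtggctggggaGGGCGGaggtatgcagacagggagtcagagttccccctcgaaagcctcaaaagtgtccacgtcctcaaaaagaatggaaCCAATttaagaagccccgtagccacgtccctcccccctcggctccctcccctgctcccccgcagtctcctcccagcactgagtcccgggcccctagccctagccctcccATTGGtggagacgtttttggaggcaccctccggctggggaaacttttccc
Col3a1: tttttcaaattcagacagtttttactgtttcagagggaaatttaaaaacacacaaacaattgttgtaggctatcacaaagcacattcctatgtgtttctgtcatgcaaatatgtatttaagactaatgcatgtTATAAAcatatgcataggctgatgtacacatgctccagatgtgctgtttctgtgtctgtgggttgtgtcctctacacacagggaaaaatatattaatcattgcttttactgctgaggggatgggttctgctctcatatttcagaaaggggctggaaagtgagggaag
The Col1a2 window was 61.0% G and C and held 2 CCAAT boxes, 2 GC boxes and no TATA box by these letters. The Col3a1 window was 37.7% G and C and held 1 TATA box match and neither of the others. Over 32851 windows of the same length the median was 52.7% G and C, and 13.6% held the TATA box letters, 37.4% those of the CCAAT box and 35.7% those of the GC box. A match describes the letters alone.

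Total counts ran from 8960549 to 10662666 in the imprints and from 12392731 to 20945108 in the dissections. The 6 haemoglobin genes took 85.4% to 90.7% of 4 imprints and 29.7% of renouncer imprint replicate 1, against at most 0.0787% in dissections. Levels are therefore given as counts per 1000000 counts outside haemoglobin (CPM). That base was 980536 to 1306627 counts in 4 imprints and 6556052 in renouncer imprint replicate 1, so a single count is worth up to 1.02 CPM in an imprint. In bulk RNA, fewer fibroblasts and less RNA per fibroblast cannot be told apart. Of 48 other fibroblast genes, 47 had a count in every perseverer OFC dissection and 45 in every renouncer OFC dissection, and Dpep1 was at 0 in both groups. In the mPFC 36 had a count in every perseverer and 37 in every renouncer dissection. In the imprints these numbers were 16 and 17. Neuronal Slc17a7, a glutamate transporter of cortical excitatory cells, stood at 1243 to 1811 CPM in dissections and at 237 to 646 CPM in imprints.

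Renouncer OFC replicate 2 stood apart from the other dissections. It held the highest of the 6 OFC values for 10 of 10 members and the highest of all 12 dissections for 8, the exceptions being Lum and Slc6a13. The members summed to 279 CPM in that library, against 42.9 to 89.8 CPM in the other 5 OFC dissections and 40.5 to 112.3 CPM in the mPFC. It was also the highest OFC library for 27 of 42 measured other fibroblast genes and 4 of 5 measured genes of macrophages at brain borders, against 16.2% of all genes tested. Its sum of the 48 fibroblast genes was 2562 CPM (1073 to 1514 in the other 5). Ptgds alone gave 1541 CPM of that sum. Ptgds ran from 466 to 824 CPM in OFC perseverers, and the lowest OFC renouncer had 561 CPM. The sum of the 7 macrophage genes in renouncer OFC replicate 2 was 21.2 CPM (5.02 to 8.93). Mural and endothelial sums, 114.2 and 249 CPM, lay within the range of the other 5, at 102 to 118.8 and 198 to 289 CPM. It was the highest OFC library for 2 of 2 measured choroid plexus genes, Kl and Kcnj13, and for 4 of 7 measured red cell genes. Its red cell sum of 776.5 CPM lay above the 257 to 675 CPM of the other 5, and its choroid plexus sum of 6.58 CPM lay within their range of 1.82 to 11.5 CPM. Ttr, the defining choroid plexus gene, was at most 9.10 CPM in the perseverer OFC dissections and at most 0.929 CPM in the renouncer ones. Of the 8 neuronal genes 0 were highest in renouncer replicate 2. The part these cells or the dissection play in the results was not tested. The comparison of perseverers with renouncers in the OFC is given with and without this library for each member and for the gene lists described.

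Per kilobase of the deposited gene length, Mgp had the highest median over the 12 dissections, 31.8 on the same scale divided by length (RPKM; range 10.7 to 180.4). Decorin followed at 3.53 RPKM (1.75 to 28.1) and Col1a2 at 2.78 (1.06 to 7.21). Slc6a13 at 2.24, Igf2 at 1.75, Fmod at 1.49 and Bgn at 1.303 RPKM formed the middle. Lum at 0.812, Col3a1 at 0.577 and Col1a1 at 0.448 RPKM were the lowest. The ranges of every pair of neighbours in this order overlapped. The 2 chains of type I collagen stood at different places in the order, Col1a2 near the top and Col1a1 at the end. Annotated exon bases exceed the deposited length, at 12426 against 5222 for Col1a2 and 6563 against 5930 for Col1a1. The order therefore depends on the length used.

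**Figure D1:**
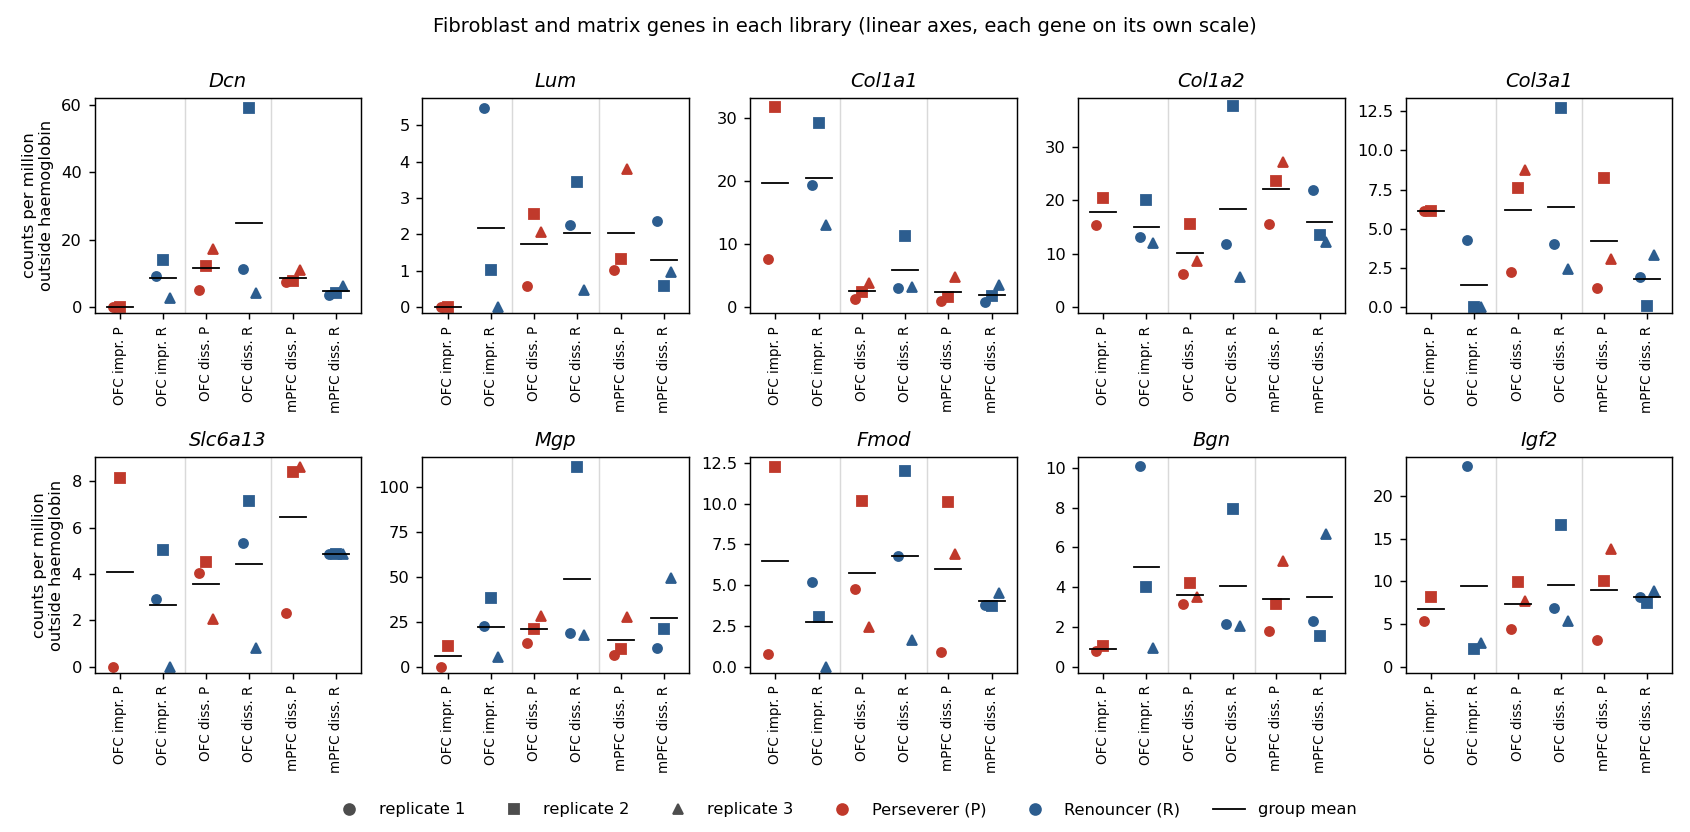
CPM outside haemoglobin of each gene (y axis, linear, own scale per panel) in the 17 libraries by group (x axis: imprints, OFC dissections and mPFC dissections; P perseverer, R renouncer); points are libraries, shapes are replicate numbers and lines are group means. Renouncer OFC replicate 2 is the highest OFC dissection in all 10 panels, and Col1a1 is the one gene with 4 of 5 imprints above every dissection.

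The first comparison asked whether perseverers and renouncers differed in the OFC after oDASS. All 10 members had a fold change below 0, with a median of -0.33 (log2), but no member passed the threshold, and without renouncer replicate 2 the direction turned for 9 of the 10. Col1a1 stood at 1.29, 2.35 and 3.77 CPM in perseverers, against 2.96, 11.3 and 3.20 CPM in renouncers. The second renouncer was the highest, and the groups overlapped through perseverer replicate 3. The means were 2.47 ± 1.24 CPM in perseverers and 5.82 ± 4.75 CPM in renouncers (SD, n = 3 each). The fold change was -1.20 ± 0.56 (log2, SE; 95% interval -2.43 to 0.03; adjusted p = 0.951, edgeR), and -0.30 without renouncer replicate 2.

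Its partner chain Col1a2 had 6.22, 15.6 and 8.56 CPM in perseverers, against 11.8, 37.7 and 5.55 CPM in renouncers. Lowest and highest values were both renouncers, so the perseverers lay inside the renouncer range. The fold change was -0.83 ± 0.63 (log2, SE), and 0.25 without renouncer replicate 2. Type III collagen gave no difference in the fit: Col3a1 read 2.23, 7.59 and 8.76 CPM in perseverers, against 4.01, 12.7 and 2.41 CPM in renouncers, with a fold change of 0.00 to 2 decimals and an interval of -1.35 to 1.35. Without renouncer replicate 2 it was 0.96, with an unadjusted p of 0.0785.

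Decorin was the most abundant proteoglycan of the 4 in CPM. It read 5.11, 12.1 and 17.0 CPM in perseverers, against 11.2, 59.1 and 4.11 CPM in renouncers. Renouncer replicate 2 was the highest and replicate 3 the lowest, so the perseverers lay inside the renouncer range. The fold change of -1.08 ± 0.98 (log2, SE) became 0.60 without renouncer replicate 2. Lumican was at -0.20 ± 0.67 with all libraries and 0.36 without that one, and fibromodulin at -0.21 ± 0.61 and 0.47. Biglycan was at -0.12 ± 0.49. Bgn had 3.17, 4.21 and 3.49 CPM in perseverers, against 2.15, 7.94 and 2.02 CPM in renouncers, so that all 3 perseverers lay above 2 of the 3 renouncers. Without renouncer replicate 2 its fold change was 0.81 (unadjusted p = 0.0438, adjusted p = 0.972, edgeR).

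Mgp, the inhibitor of calcification, read 13.03, 20.9 and 28.1 CPM in perseverers, against 18.5, 111.3 and 17.4 CPM in renouncers, a fold change of -1.22 ± 0.80 (log2, SE) that was 0.23 without renouncer replicate 2. Slc6a13 had 4.05, 4.53 and 2.05 CPM in perseverers, against 5.35, 7.15 and 0.783 CPM in renouncers. Here too a renouncer was lowest and another highest, with a fold change of -0.29 ± 0.58, and 0.22 without renouncer replicate 2. Igf2 read 4.40, 9.94 and 7.67 CPM in perseverers, against 6.93, 16.6 and 5.35 CPM in renouncers, a fold change of -0.36 ± 0.42, and 0.28 without that library.

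Of 14621 genes tested in the OFC, 0 passed (0.0%), with 377 at an unadjusted p under 0.05, and DESeq2 called 0 with 420 under 0.05. Members past the threshold were 0 of 10 by either tool. The median over all genes was 0.00. No member had groups that did not overlap, against 4.17% of tested genes with perseverers wholly higher and 4.75% wholly lower. Without renouncer replicate 2 the members had 9 fold changes above 0 and 1 below, with a median of 0.32.

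In the mPFC, the same question gave fold changes above 0 for 9 of 10 members, with a median of 0.50 (log2) against 0.00 over all genes, and again no member passed. Decorin was the member whose groups did not overlap. It read 7.27, 7.61 and 11.1 CPM in perseverers, against 3.67, 4.12 and 6.21 CPM in renouncers. Every perseverer lay above every renouncer, which held for 3.97% of tested genes (the opposite order for 7.78%). The means were 8.65 ± 2.11 CPM in perseverers and 4.67 ± 1.36 CPM in renouncers (SD, n = 3 each). The fold change was 0.96 ± 0.36 (log2, SE; 95% interval 0.16 to 1.75; unadjusted p = 0.0228, adjusted p = 0.943, edgeR), and 0.69 without perseverer replicate 3, the library highest for 6 of 10 members in the mPFC.

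Col1a2, the most abundant collagen chain in CPM, had 15.5, 23.6 and 27.2 CPM in mPFC perseverers, against 21.9, 13.6 and 12.3 CPM in renouncers. The highest renouncer lay between the perseverers, and the fold change was 0.53 ± 0.30 (log2, SE). Col1a1 read 0.883, 1.54 and 4.81 CPM in perseverers, against 0.747, 1.70 and 3.43 CPM in renouncers, with wide overlap and a fold change of 0.40 ± 0.77. Col3a1 varied widely, at 1.22, 8.27 and 3.08 CPM in perseverers, against 1.93, 0.0807 and 3.35 CPM in renouncers. The middle renouncer value is 1 count. The fold change was 1.26 ± 0.92 (log2, SE).

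The other proteoglycans overlapped between the groups. Lum read 1.02, 1.32 and 3.80 CPM in mPFC perseverers, against 2.37, 0.565 and 0.956 CPM in renouncers. Fmod read 0.883, 10.1 and 6.93 CPM in perseverers, against 3.80, 3.71 and 4.54 CPM in renouncers, so the renouncers lay inside a wide perseverer range. Bgn read 1.77, 3.15 and 5.31 CPM in perseverers, against 2.30, 1.53 and 6.69 CPM in renouncers. Their fold changes were 0.74 ± 0.77, 0.63 ± 0.65 and 0.04 ± 0.63 (log2, SE).

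Mgp was the 1 member below 0 in the mPFC. It had 6.59, 9.58 and 27.7 CPM in perseverers, against 10.6, 20.7 and 49.2 CPM in renouncers, a fold change of -0.78 ± 0.60 (log2, SE). Renouncer replicate 3 was highest and perseverer replicate 1 lowest. The value was -0.02 without renouncer replicate 3 and -1.71 without perseverer replicate 3 (unadjusted p = 0.0103, adjusted p = 0.324, edgeR). Slc6a13 spread widely in perseverers, at 2.31, 8.41 and 8.61 CPM, against 4.86, 4.84 and 4.86 CPM in renouncers, with a fold change of 0.47 ± 0.47. Igf2 showed the same shape, with 3.06, 10.1 and 13.8 CPM in perseverers, against 8.22, 7.43 and 8.92 CPM in renouncers, and a fold change of 0.21 ± 0.47. In both genes perseverer replicate 1 was the lowest library and the other perseverers lay above all renouncers.

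Of 14375 genes tested in the mPFC, 0 passed (0.0%), with 639 at an unadjusted p under 0.05, and DESeq2 called 0 with 767 under 0.05. Without perseverer replicate 3 the members had 5 fold changes above 0 and 5 below, with a median of 0.01. That library held the highest mPFC value for 14 of 38 measured other fibroblast genes, against 17.8% of all genes tested there.

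**Figure D2:**
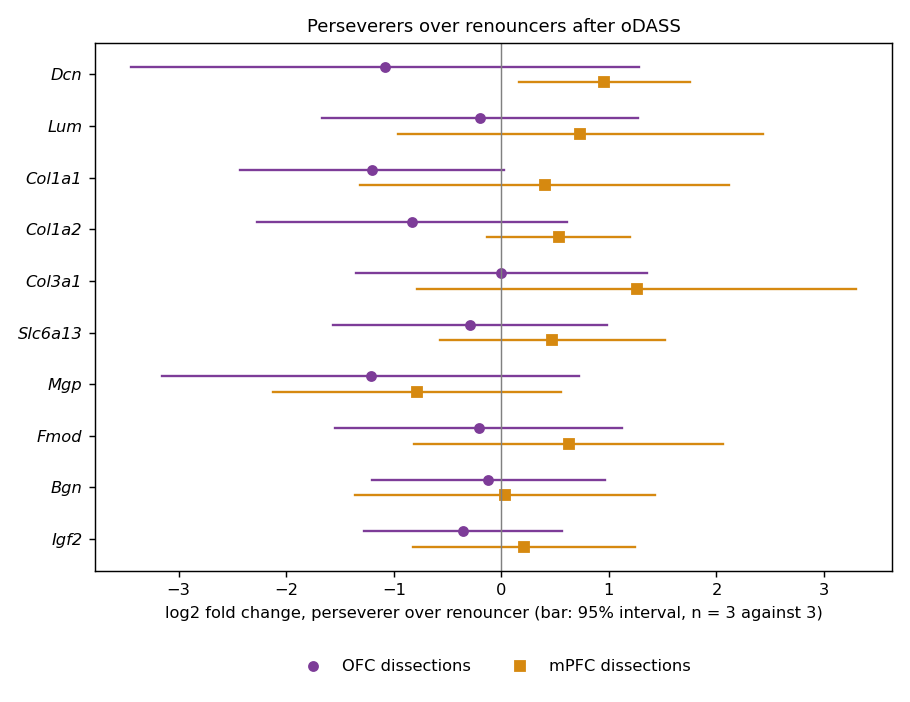
Log2 fold change of perseverers over renouncers (x axis) for each gene (rows) in OFC dissections (circles) and mPFC dissections (squares); bars are 95% intervals from edgeR, 3 against 3 libraries. All OFC points lie at or below 0, 9 of 10 mPFC points lie above it, and the only interval that leaves out 0 is that of Dcn in the mPFC.

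**Figure D3:**
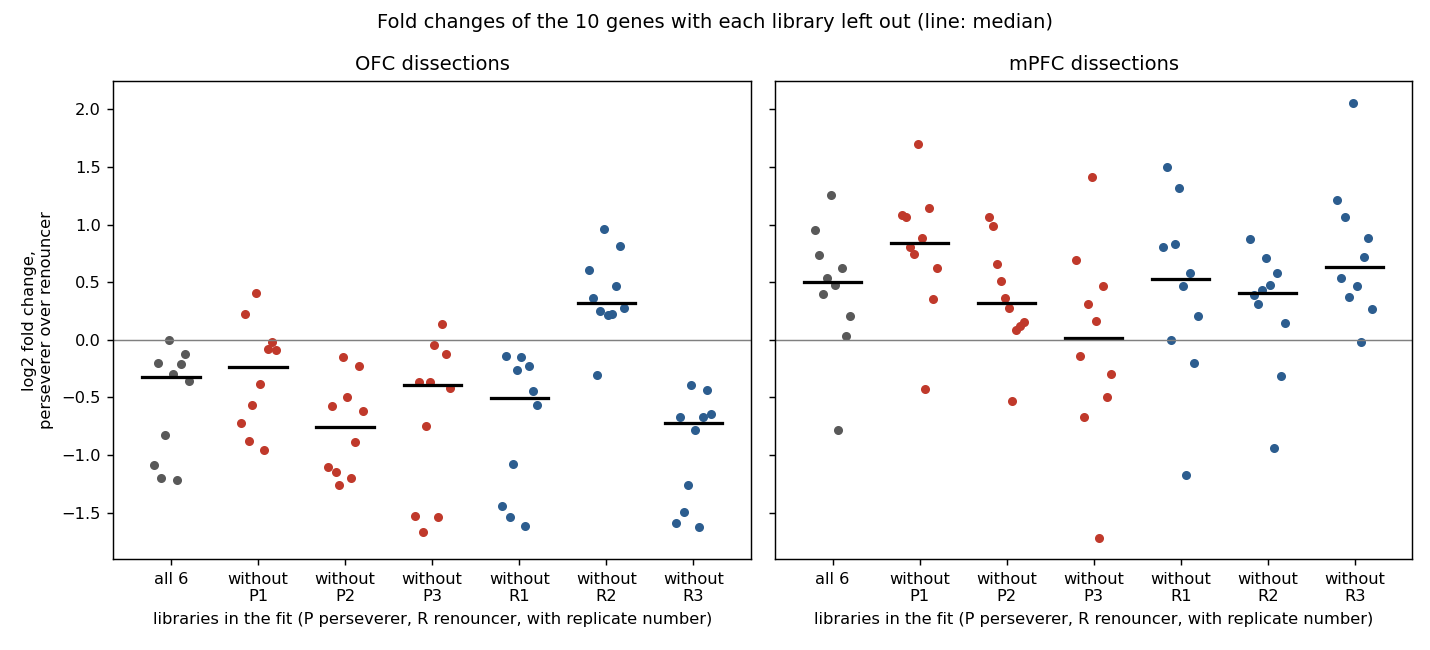
Log2 fold changes of the 10 genes (points) and their median (lines), perseverer over renouncer, with all 6 libraries and with each library left out (x axis), for the OFC (left) and the mPFC (right). The OFC median is -0.33 with all libraries and 0.32 without renouncer replicate 2, and the mPFC median is 0.50 with all and 0.01 without perseverer replicate 3.

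The difference between the regions was itself tested, as the perseverer effect in the OFC minus that in the mPFC over 12 dissections. All 10 members were below 0, with a median of -0.88 (log2) against 0.00 over all genes, and none passed. Decorin differed by -2.04 ± 1.01 (log2, SE; unadjusted p = 0.0629), Col1a1 by -1.60 ± 1.05, Col1a2 by -1.36 ± 0.76 and Col3a1 by -1.25 ± 1.22. Smaller values belonged to Bgn, at -0.16 ± 0.88, and Mgp, at -0.43 ± 1.04. The fit treats the libraries as unpaired, and pairing by replicate number was neither established nor excluded. With the replicate number as a block, 8 members were below 0 and 2 above, with a median of -0.51. Dcn was then at -1.40 (unadjusted p = 0.209, edgeR). Without renouncer OFC replicate 2 the value of Dcn was -0.31, the median was -0.24, and 3 members were above 0, among them Mgp at 1.04. Of 15025 genes tested, 0 passed (0.0%) and 225 had an unadjusted p under 0.05, with 0 called and 287 under 0.05 by DESeq2.

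Imprints taken before oDASS were compared to ask whether the phenotypes differed in the OFC beforehand. Only 5 of the 10 members passed the filter on low counts; Lum, Col3a1, Slc6a13, Bgn and Igf2 did not. Decorin was at 0 counts in both perseverer imprints, against 61, 14 and 3 counts in the renouncer imprints, which are 9.30, 14.1 and 2.77 CPM. With a floor of 3 counts per library, a count of 0 allows up to 2.30 CPM in perseverer replicate 1 and 3.06 CPM in replicate 2. Set at that floor, the perseverer mean was 3.25-fold lower than the renouncer mean of 8.71 ± 5.67 CPM (SD, n = 3). This limit covers counting error only, not the spread between libraries. The lowest renouncer, at 3 counts, is itself at the floor. Groups that do not overlap with perseverers lower made up 4.5% of tested genes. Decorin passed the filter on low counts only through the renouncer imprints, where it was high. Without renouncer imprint replicate 1 or 2 it was no longer tested. The fit gave an unadjusted p of 0.0179 and an adjusted p of 0.9999 (edgeR). Its fold change is no bound, and its p is no support for a difference.

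Both chains of type I collagen were read at 10 counts or more in every imprint. Col1a1 had 7.65 and 31.6 CPM in perseverer imprints, from 10 and 31 counts, against 19.4, 29.1 and 12.9 CPM in renouncer imprints. Lowest and highest were both perseverers, and the fold change was 0.08 ± 0.96 (log2, SE). Col1a2 read 15.3 and 20.4 CPM in perseverers, against 13.1, 20.1 and 12.01 CPM in renouncers, a fold change of 0.24 ± 0.85. Col3a1, not tested, had 8 and 6 counts in perseverers, against 28, 0 and 0 in renouncers. Each perseverer value, 6.12 CPM, lay above the highest renouncer, 4.27 CPM. That order was seen in 3.87% of tested genes, a set that leaves out Col3a1. The share among genes with counts this low was not computed.

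Mgp read 0 and 11.2 CPM in perseverer imprints, against 22.9, 38.2 and 5.54 CPM in renouncer imprints, a fold change of -1.91 ± 1.45 (log2, SE). Fmod read 0.765 and 12.2 CPM in perseverers, against 5.19, 3.01 and 0 CPM in renouncers, a fold change of 1.71 ± 1.74. Both genes overlapped between the groups. The members that were not tested had few counts outside renouncer replicate 1, the imprint with the least haemoglobin. Igf2 had 7 and 8 counts in perseverers, against 154, 2 and 3 in renouncers, and Bgn had 1 and 1, against 66, 4 and 1. Lum had 0 and 0 counts in perseverers, against 36, 1 and 0, and Slc6a13 0 and 8, against 19, 5 and 0. No gene of 10530 passed (0.0%), with 181 at an unadjusted p under 0.05, and 0 called and 237 under 0.05 by DESeq2.

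Between regions after oDASS, 264 of 15025 genes passed (1.76%), 134 higher in the OFC (0.892%) and 130 lower (0.865%), and no member was among them. This fit treats the libraries as unpaired. With the replicate number as a block 1130 genes passed, still no member, and Dcn had an unadjusted p of 0.165 (edgeR). Without the block decorin had the smallest unadjusted p of the members. It read 5.11 to 17.0 CPM in OFC perseverers and 4.11 to 59.1 CPM in OFC renouncers, against 3.67 to 11.1 CPM in the 6 mPFC dissections. The medians were 11.6 CPM in the OFC and 6.74 CPM in the mPFC, and the ranges overlapped. Its fold change was 1.41 ± 0.57 (log2, SE; 95% interval 0.18 to 2.63; unadjusted p = 0.0269, adjusted p = 0.263, edgeR), and 0.55 without renouncer OFC replicate 2. Col3a1 was at 1.20 ± 0.62, Col1a1 at 0.81 ± 0.56 and Mgp at 0.70 ± 0.51, and at 0.71, 0.31 and 0.03 without that library. Fmod was at 0.36 ± 0.51, Lum at 0.19 ± 0.55 and Bgn at 0.15 ± 0.43, and without it Lum was at -0.12 and Bgn at -0.27. Negative values came from Slc6a13, at -0.49 ± 0.43, Col1a2, at -0.45 ± 0.41, and Igf2, at -0.02 ± 0.35. Without renouncer OFC replicate 2, 5 members were above 0 and 5 below, and Col1a2 was -1.01 (unadjusted p = 0.00198, adjusted p = 0.108, edgeR).

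A ratio within a library does not depend on its scaling. The ratio of Dcn to Col1a2 counts was 0.821, 0.775 and 1.99 in OFC perseverers and 0.951, 1.57 and 0.741 in OFC renouncers. The mPFC perseverers had 0.469, 0.323 and 0.407, and the mPFC renouncers had 0.168, 0.304 and 0.506. Every OFC dissection lay above every mPFC dissection. Renouncer OFC replicate 2, at 1.57, was within the range of the other OFC libraries here. This pair of genes was chosen after the values were seen, so the ratio has no test. How many other pairs of members would separate the regions was not computed.

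**Figure D4:**
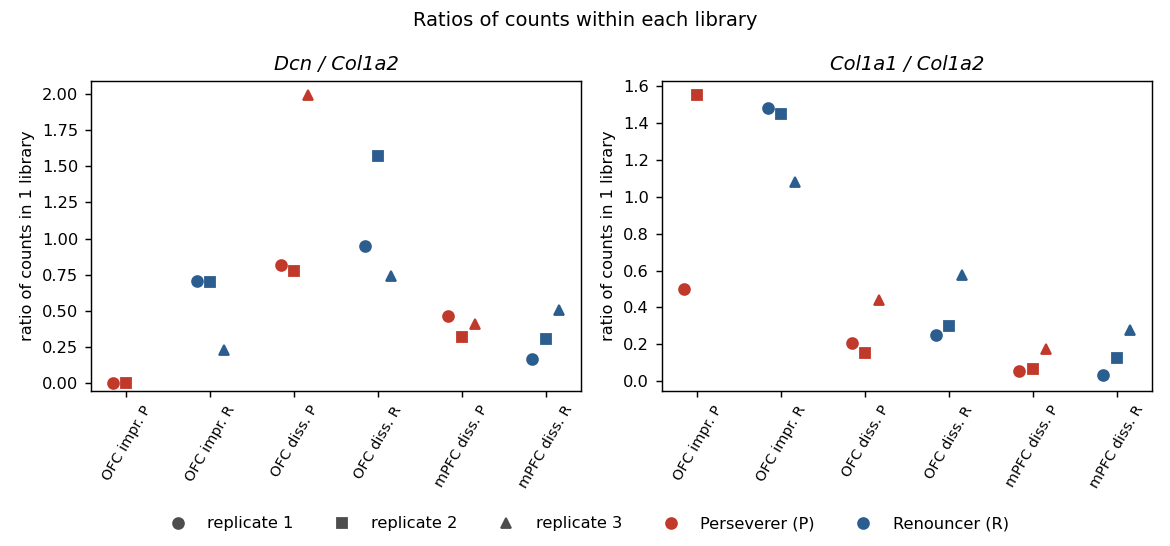
Ratio of Dcn to Col1a2 counts (left) and of Col1a1 to Col1a2 counts (right) in each of 17 libraries (points; y axis, linear), by group on the x axis. The Dcn ratio is 0.741 or more in all 6 OFC dissections and 0.506 or less in all 6 mPFC dissections, and the Col1a1 ratio is highest in 4 of the 5 imprints. The pair Dcn and Col1a2 was chosen after the values were seen.

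Imprints before oDASS and dissections after it were also set against each other within the OFC. Of 15229 genes, 5106 passed (33.5%), 2374 higher in imprints (15.6%) and 2732 lower (17.9%). Col1a1 was the 1 member called. It read 7.65 and 31.6 CPM in perseverer imprints and 19.4, 29.1 and 12.9 CPM in renouncer imprints, against a range of 1.29 to 11.3 CPM in the 6 dissections. The imprint in perseverer replicate 1 lay below the dissection in renouncer replicate 2, and the other 4 imprints lay above every dissection. The means were 20.1 ± 10.3 CPM in imprints (SD, n = 5) and 4.14 ± 3.60 CPM in dissections (SD, n = 6). TMM does not scale by the counts outside haemoglobin, so the fitted fold changes are not the ratios of such means. Col1a2, with means of 16.2 CPM in imprints and 14.2 CPM in OFC dissections, was fitted at 1.14 (log2). With TMM scaling the fold change of Col1a1 was 3.35 ± 0.62 (log2, SE; 95% interval 2.03 to 4.66; adjusted p = 5.60e-04, edgeR), beside a median over all genes of -0.16, and 3.90 without renouncer OFC dissection replicate 2. With library totals as the scaling it was -0.08 and the median of all genes -2.82, which puts Col1a1 2.74 above that median, against 3.51 above it with TMM.

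Its partner Col1a2 did not pass, with 12.01 to 20.4 CPM in imprints, against 5.55 to 37.7 CPM in dissections and a fold change of 1.14 ± 0.55 (log2, SE; adjusted p = 0.121, edgeR). Without renouncer OFC dissection replicate 2 it was 1.76 (adjusted p = 0.0162), and without renouncer imprint replicate 1 it was 1.52 (adjusted p = 0.0452). The ratio of Col1a1 to Col1a2 counts was 0.5 and 1.55 in perseverer imprints and 1.48, 1.45 and 1.08 in renouncer imprints. Dissections of the OFC gave 0.208, 0.151 and 0.44 in perseverers, and 0.252, 0.3 and 0.576 in renouncers. In the mPFC dissections it was at most 0.279. Apart from perseverer imprint replicate 1, the imprints exceeded every dissection.

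The remaining members had intervals that held 0. Decorin was at -1.39 ± 0.88 (log2, SE), Mgp at -0.43 ± 0.78 and Col3a1 at -0.23 ± 0.70. Values above 0 were those of Igf2, at 0.66 ± 0.51, Slc6a13, at 0.51 ± 0.88, Bgn, at 0.43 ± 0.64, Fmod, at 0.26 ± 0.80, and Lum, at 0.22 ± 0.84. All 9 red cell genes passed the threshold as higher in the imprints, and 7 of 8 neuronal genes passed as lower. Snap25, a synaptic fusion protein, was among the latter, at -2.31 ± 0.27. Over all genes 15.6% passed as higher and 17.9% as lower. The macrophage list summed to 497 to 1676 CPM in imprints, against 5.02 to 21.2 CPM in OFC dissections. Of its 7 genes 5 passed as higher, led by Pf4 and F13a1, which platelets also express. The share of these changes in the Col1a1 result was not tested.

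**Figure D5:**
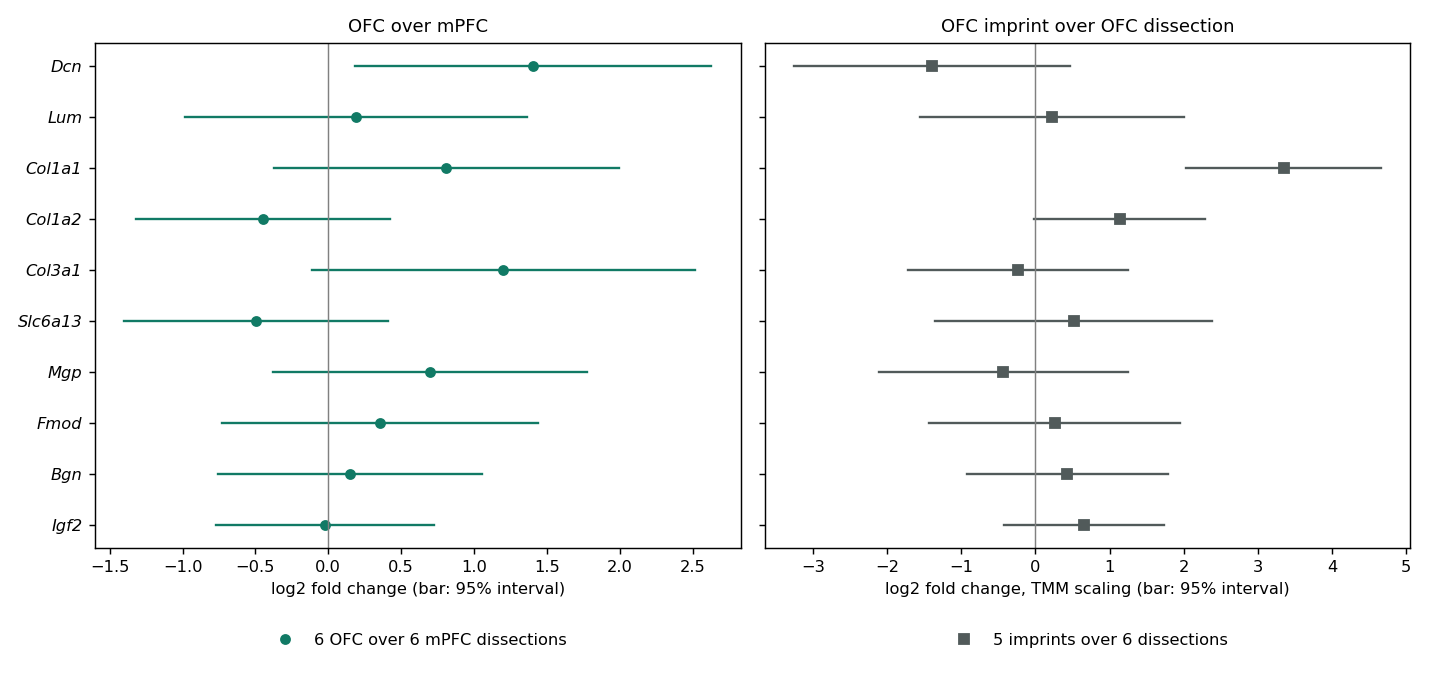
Log2 fold change (x axis; points) with 95% intervals (bars) for each gene (rows), for 6 OFC over 6 mPFC dissections (left) and 5 OFC imprints over 6 OFC dissections (right), from edgeR with TMM scaling and no replicate block. Dcn is the gene whose interval leaves out 0 on the left, without passing after adjustment, and Col1a1 at 3.35 is that gene on the right; with library totals as scaling Col1a1 is at -0.08.

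Other genes of the same pathways were read from 16 lists. Among 48 other fibroblast genes, 42 were tested in the OFC, with 7 fold changes above 0 and 35 below and a median of -0.32, and 0 passed. Without renouncer replicate 2 they had 23 above 0 and 19 below, with a median of 0.02. With all libraries the smallest p belonged to Col6a2, a chain of type VI collagen, at -1.21 ± 0.47, and Slc47a1, an exporter of organic cations, at -1.79 ± 0.76. In the mPFC 38 were tested, with 24 above 0, 14 below, a median of 0.25 and 0 past the threshold, and without perseverer replicate 3 the count was 19 above and 22 below of 41, with a median of -0.03. With all libraries Foxp1, a forkhead factor, was at 0.46 ± 0.19 and Eln, elastin, at 1.61 ± 0.69. Between regions 32 were above 0 and 12 below, and Nupr1, a stress-induced chromatin protein, rose in the OFC by 0.99 ± 0.22 (adjusted p = 0.0297, edgeR). Without renouncer OFC replicate 2 the count was 24 above and 21 below, and 0 passed. In imprints against dissections 7 rose and 9 fell of 46, beside 15.6% of all genes that rose and 17.9% that fell, so the list is near the background. Pi16, a marker of adventitial fibroblasts, rose by 5.19 ± 0.97, and Ogn, osteoglycin, was at -3.63 ± 1.04 (adjusted p = 0.0132, edgeR). Both values rest on few counts. Pi16 ran from 0 to 5.10 CPM in perseverer imprints and from 0 to 12.05 CPM in renouncer imprints, and was at most 0.479 CPM in OFC dissections. Ogn was at most 1.004 CPM in the imprints, where a single count is worth up to 1.02 CPM.

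Genes whose products fold, modify and cross-link collagen were spread to both sides of 0. Of 27 such genes tested in the OFC, 12 were above 0 and 15 below, with a median of -0.03 (19 and 8 without renouncer replicate 2, with a median of 0.09), and in the mPFC 13 and 14, with a median of -0.05. None passed in either region. In the imprints Plod3, a lysyl hydroxylase, rose by 1.45 ± 0.36 over dissections. It was the 1 called of 28, a smaller share than the 33.5% called over all genes there. Among 12 other small leucine-rich proteoglycans, 7 were tested in the OFC, 1 above 0 and 6 below, or 3 and 4 without renouncer replicate 2. Podn, podocan, had the smallest p there, at -1.24 ± 0.53.

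Partners of the Igf2 and proteoglycan genes were also read. Igf2r, the receptor that clears Igf2, was at 0.79 ± 0.24 in the mPFC and at -1.15 ± 0.34 for the difference between regions, and Igf1r, which signals for Igf2, was at 0.54 ± 0.21 in the mPFC; none passed. Of 13 genes of this axis tested between regions, Igfbp5, a binding protein, rose in the OFC by 0.58 ± 0.13 (adjusted p = 0.0303, edgeR), and without renouncer OFC replicate 2 no gene of the axis passed. Of 13 genes of the axis tested in imprints against dissections, 1 rose and 3 fell, beside 33.5% of all genes that passed there. Igfbp3, Igfbp5 and Igfbp6 fell and Igfbp2 rose. Transforming growth factor beta genes, whose ligands decorin and biglycan bind, had 13 of 15 above 0 in both the OFC and the mPFC, with medians of 0.22 and 0.15 and 0 passed, and the OFC count was also 13 of 15 without renouncer replicate 2. The mPFC count was 11 of 15 without perseverer replicate 3. In imprints 4 of the 15 rose and 1 fell against dissections, and Tgfb1 rose by 4.75 ± 0.41. Over all genes 33.5% passed there, 15.6% that rose and 17.9% that fell. Matrix receptors had 5 genes that rose and 2 that fell in imprints among 13, beside the same 33.5% over all genes, with the smallest p for Cd44, the hyaluronan receptor, at 4.05 ± 0.45. Of the 4 tested relatives of Slc6a13, 0 passed in any comparison.

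Genes of neighbouring cell types were read beside the members. Endothelial genes had 11 of 12 above 0 in the OFC and 3 of 12 in the mPFC, with medians of 0.23 and -0.18. Basement membrane genes had 9 of 11 above 0 in both regions, with medians of 0.27 and 0.37, and mural genes had 7 and 8 of 11. Macrophage genes had 0 of 5 above 0 in the OFC, with a median of -0.61, and 2 of 3 in the mPFC. Choroid plexus genes had 0 of 2 above 0 in the OFC and 3 of 3 in the mPFC, and ependymal genes 1 of 4 and 3 of 3. Astrocyte genes had 8 of 8 and 5 of 8 above 0, neuronal genes 5 of 8 and 7 of 8, and red cell genes 7 of 7 in both. Without renouncer OFC replicate 2 the OFC counts above 0 were 11 of 12 endothelial, 10 of 12 basement membrane, 7 of 11 mural, 2 of 5 macrophage, 0 of 3 choroid plexus, 2 of 4 ependymal, 8 of 8 astrocyte, 3 of 8 neuronal and 7 of 7 red cell genes. Without perseverer mPFC replicate 3 the mPFC counts above 0 were 2 of 12 endothelial, 8 of 11 basement membrane and 6 of 11 mural genes. They were 1 of 6 for macrophage, 2 of 2 for choroid plexus and 3 of 3 for ependymal genes. Astrocyte genes had 6 of 8, neuronal genes 7 of 8 and red cell genes 3 of 7, the last with a median of -0.10. Of these lists 0 genes passed in the OFC, the mPFC or the difference between them. Gfap of astrocytes rose in the OFC over the mPFC by 1.39 ± 0.22 (adjusted p = 0.00466, edgeR).

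The genes most like the 10 members were ranked by Pearson correlation with their mean standardised log2(CPM + 1) over the 12 dissections, among 13839 genes. Gstm2, a glutathione transferase, had r = 0.908, Fn1, fibronectin, r = 0.893, Fzd4, a frizzled receptor, r = 0.887, and Foxc1, a forkhead factor, r = 0.881. Asgr1, Serping1, Foxd1, Mpzl2, Nid1 and Tnfrsf1a followed, at 0.844 to 0.881. Without the 2 most extreme libraries, renouncer OFC replicate 2 and perseverer mPFC replicate 1, r was 0.600 to 0.828, with Foxd1 and Fn1 at 0.828 and 0.816. Points that share a library share its depth and composition, so these values describe the 12 libraries and carry no p.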

How the data were processed

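The authors deposited raw counts per gene in 3 tables of 25239 genes, with a gene length in bases; these are whole-number counts with a different total in each library. Per the labels' protocols, a Qiagen kit served for total RNA, and SMART-Seq and Nextera reagents, which lose the strand, for the libraries. Per the submitters' processing notes, reads were checked with FastQC 0.11.8 and the build was mm10; aligner, counter and annotation: not given in the sources used here. Positions come from GENCODE M21 of GRCm38 and promoter windows from RefSeq.

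Tests used edgeR 4.0.16 in R 4.3.3: filterByExpr, TMM scaling, robust quasi-likelihood fits, 2-sided tests and Benjamini-Hochberg adjustment over all genes tested, with 0.05 as the threshold. The approximate SE of a log2 fold change is its size over the root of the F statistic. Phenotypes were compared within each set of libraries, regions over the 12 dissections and collection over the 11 libraries from the OFC, both adjusted for phenotype, and the difference between regions as a contrast of 4 group means. CPM and RPKM were computed from the deposited counts outside the 6 haemoglobin genes. Limits for 0 counts cover counting error only.

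Alternatives were DESeq2 1.42.0, RLE scaling, library totals, no low-count filter, removal of the haemoglobin genes, the replicate number as a block and leaving out each library. Gene list counts with libraries left out were added after seeing the data. The tests were checked on simulated data with 200 changed genes. All 10 members are named; of each of 16 other lists, the genes named are those past the threshold or the 2 with the smallest p, not all printed. Members and lists were chosen with earlier results of these data known.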

Additional observations from a re-analysis of the deposited data

How the results depend on the processing

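The 1 call among the members, Col1a1 in imprints over dissections, was lost with library totals as scaling and held under every other alternative run. Counts of genes called between regions were 264, and 698 with DESeq2, 1130 with the replicate block and 120 to 448 with single libraries left out. In the OFC that count was 122 and 126 without perseverer replicates 1 and 3, and 135 and 157 without renouncer replicates 2 and 3. In the mPFC it was 152, 170 and 448 without perseverer replicates 1, 2 and 3, and 165 and 120 without renouncer replicates 1 and 2. Between imprints and dissections, genes called were 5106, and 10490 with library totals. Members called there were 1, and 2 with DESeq2, 5 with library totals and 1 to 2 with single libraries left out, where Col1a2 joined Col1a1. Of the phenotype comparisons and the difference between regions, none called a gene under the alternatives run.

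Fold changes that turned sign with library totals as scaling were, in the imprints, Col1a1 -1.48, Col1a2 -0.97 and Fmod -0.99, in the mPFC, Bgn -0.0341, and between imprints and dissections, Lum -2.16, Col1a1 -0.0824, Col1a2 -2.19, Slc6a13 -2.69, Fmod -2.69, Bgn -2.13 and Igf2 -1.74. That scaling moved the median of all genes to -1.79 in the imprint comparison and to -2.82 between imprints and dissections. DESeq2 put Lum at -0.0155 in the last, and no filter put Col3a1 at 0.0061 in the OFC.

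The labels do not say that a replicate number marks an animal, though OFC and mPFC dissections of equal phenotype and number have adjacent tube labels. Their deviations from the group means correlated at 0.181, 0.453 and 0.491 in perseverers and at 0.189, 0.00868 and 0.20 in renouncers, and 10 of the 12 dissections correlated best with their own number, the exceptions being both renouncer replicates 2. As 1 pair is under 0.1 and the labels name no shared animal, pairing was neither established nor excluded. The fit without the block was kept, and its p-values between regions ignore any pairing. With the block between regions, Dcn was at 0.91 (unadjusted p = 0.165), Col1a1 had the smallest unadjusted p of the members, at 0.88 (unadjusted p = 0.0473, adjusted p = 0.219, edgeR), and no member passed. Between phenotypes, libraries of equal number correlated at -0.236 to 0.186, and between imprints and dissections at -0.0207 to 0.124. With the replicate block, 0 genes were called in the phenotype comparisons and in the difference between regions and 3924 between imprints and dissections. Signs turned under the block for Col1a1 -0.55 and Fmod -0.0874 in the imprints, Col3a1 0.0507 and Bgn 0.13 in the OFC, Igf2 -0.0173 in the mPFC, Mgp 0.0586 and Bgn 0.06 in the difference between regions, and Lum -0.33, Slc6a13 -0.0903 and Fmod -0.34 between imprints and dissections.

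With single libraries left out, the values of members that turned sign ran as follows. In the OFC, Dcn ran from -1.59 to 0.60, Lum from -0.67 to 0.36, Col1a2 from -1.26 to 0.25, Col3a1 from -0.39 to 0.96, Slc6a13 from -0.78 to 0.22, Mgp from -1.62 to 0.23, Fmod from -0.89 to 0.47, Bgn from -0.44 to 0.81 and Igf2 from -0.64 to 0.28. In the mPFC, Lum ran from -0.14 to 1.501, Col1a1 from -0.67 to 1.06, Bgn from -0.50 to 0.89 and Igf2 from -0.30 to 0.62. In the imprints, where a lone perseverer is assumed to vary like the renouncers, Col1a1 ran from -1.97 to 1.03, Col1a2 from -0.51 to 1.05 and Fmod from -2.08 to 2.75. In the difference between regions, Mgp ran from -1.23 to 1.04, Bgn from -1.04 to 0.80 and Igf2 from -0.997 to 0.0963. Between regions, Lum ran from -0.12 to 0.64, Bgn from -0.27 to 0.51 and Igf2 from -0.35 to 0.24. Between imprints and dissections, Lum ran from -1.94 to 0.63, Col3a1 from -0.62 to 0.32, Slc6a13 from -0.61 to 0.90, Mgp from -1.24 to 0.40, Fmod from -0.91 to 0.71 and Bgn from -0.11 to 0.87. The cause was not tested. The 980536 to 1306627 counts outside haemoglobin in 4 imprints limit what the imprints can show.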
